A study of Mus musculus with 24 samples.

Results

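Interferon response genes are the genes that cells switch on when interferon or foreign nucleic acid is sensed. The set described here held 37 of them, chosen by name: RNA and DNA sensors, transcription factors, antiviral effectors, interferon gamma GTPases, antigen-processing genes and a chemokine. Each of the 37 had an exon row in the count table (29758 gene symbols had one), and all 37 were among the 15719 genes that passed the filter on low counts. RNA sequencing was done on whole back skin of male wild-type C57BL/6NCrl mice, an inbred strain, at 8 weeks of age with hair follicles labelled as resting (telogen). Sampling times are in ZT, hours counted from lights on, and darkness began at ZT12. For 18 to 21 days before sampling, food was open for 4 h a day, from ZT0 in the ED group, from ZT5 in the MD group and from ZT12 in the EN group. Water and light cycle were shared by the 3 groups, and a group with food at all hours was not analysed here. Each group had 8 libraries, 1 per sampling time every 4 h from ZT0 to ZT28, and RNA of 2 to 4 animals went into every pool. The sources used here do not say whether pools of different times came from separate mice, and the p-values reflect only how far the pools scatter around a fitted course.

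Interferons act through receptors that activate JAK kinases. Type I interferons (alpha, beta, kappa and others) drive a complex that holds STAT2 and IRF9 and binds the interferon-stimulated response element (ISRE) of its target genes. Genes of the interferon gamma response often hold another element, the gamma-activated site (GAS). Skin keeps a low level of this response without infection, and many of its genes lie next to each other as duplicated families.

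The libraries held 13222667 to 26316851 exon counts each, so a member at 1 CPM (counts scaled to library size) rested on 13 or more reads. Intron reads per exon read had a median of 0.681 in ED, 0.703 in MD and 0.611 in EN. The keratinocyte marker sum (Krt14, Krt5, Krt1 and Krt10) was 5098 to 7777 CPM over the pools. A pair of pools carried growing-hair transcripts, with a hair-shaft marker sum of 703.1 CPM in ED ZT24 and 1488 CPM in EN ZT0, although all skin was labelled as telogen. Without that pair, 4 members were called between MD and ED and 8 between EN and MD, against 4 and 9 with all pools.

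Stretches of DNA upstream of the start are shown for 4 members with most ISRE matches (of those with equal numbers, the first by name), to show the element on which type I interferon signalling acts, and for Ifit2, which followed meal time. They were taken from RefSeq on GRCm38.p6 and end before the annotated start; capitals mark ISRE matches (GAAA, 2 bases of any kind and GAAA, or TTTC, 2 bases and TTTC on the other strand, with overlapping matches counted separately). In Ifit2 the capitals mark a GAS match (TTCNNNGAA, the same on both strands), since this stretch held no ISRE match.
Isg15 (chr4:156200819-156201068, minus strand): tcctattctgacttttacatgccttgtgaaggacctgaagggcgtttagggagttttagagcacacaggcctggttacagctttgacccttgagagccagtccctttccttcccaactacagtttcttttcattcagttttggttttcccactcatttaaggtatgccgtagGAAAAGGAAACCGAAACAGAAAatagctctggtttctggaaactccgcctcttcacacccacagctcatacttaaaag
Bst2 (chr8:71537473-71537722, minus strand): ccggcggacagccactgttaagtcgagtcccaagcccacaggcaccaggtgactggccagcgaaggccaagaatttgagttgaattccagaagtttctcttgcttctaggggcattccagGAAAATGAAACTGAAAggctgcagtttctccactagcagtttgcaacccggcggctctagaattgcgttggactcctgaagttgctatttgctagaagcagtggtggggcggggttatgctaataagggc
Gbp3 (chr3:142559794-142560025, plus strand): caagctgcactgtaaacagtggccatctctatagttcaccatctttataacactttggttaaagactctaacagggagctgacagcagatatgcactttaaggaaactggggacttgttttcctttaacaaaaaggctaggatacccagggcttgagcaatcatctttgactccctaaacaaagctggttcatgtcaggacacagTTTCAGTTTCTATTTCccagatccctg
Ifit1 (chr19:34640639-34640870, plus strand): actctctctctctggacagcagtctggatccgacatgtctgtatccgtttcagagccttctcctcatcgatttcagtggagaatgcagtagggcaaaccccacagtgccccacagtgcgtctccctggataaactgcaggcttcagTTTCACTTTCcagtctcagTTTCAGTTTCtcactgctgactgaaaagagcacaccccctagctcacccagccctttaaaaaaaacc
Ifit2 (chr19:34550444-34550693, plus strand): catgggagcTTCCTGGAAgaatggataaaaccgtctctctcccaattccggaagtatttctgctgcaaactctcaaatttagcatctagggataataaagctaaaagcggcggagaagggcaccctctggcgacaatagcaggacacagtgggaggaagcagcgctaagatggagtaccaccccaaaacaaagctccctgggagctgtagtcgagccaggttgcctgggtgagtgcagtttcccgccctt

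RefSeq promoters matched 27 of the 37 members, with 31 starts. In the 250 bases before the start, 13 of the 31 held an ISRE match, each of another member, while 2.98% of all 32851 promoters did. Isg15 had 3 overlapping matches, Bst2, Gbp3, Ifit1, Ifit3, Irgm1 and Oas1a had 2 each, and Cxcl10, Gbp2, Igtp, Oas3, Rsad2 and Stat2 had 1 each. A GAS match stood before 6 of the 31 starts, against 7.02% of all promoters. A match is a run of letters and not a measured binding site.

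Levels were compared between members per length, as the mean of the deposited RPKM over 24 pools. These values were made by the authors with cqn, so their order need not be that of plain counts per exon length. Tap1, which encodes a subunit of the peptide transporter that loads MHC class I (uc008cbu.2; chromosome 17, 34187553 to 34197225, mm10), was highest at 30.4 ± 2.71 RPKM (SD, n = 24). Irf1, a transcription factor gene of the interferon gamma response, followed at 19.3 ± 2.88 RPKM, Psmb8 at 17.7 ± 2.55 and Gbp2 at 16.7 ± 2.33, and each of these 3 lay within 1 SD of its neighbour. At the low end were Ifi44 at 0.778 ± 0.261 RPKM, Cxcl10 at 1.10 ± 0.454, Oas1a at 1.12 ± 0.377 and Mx2 at 1.195 ± 0.422, which also overlapped within their SD. Irf9 was the fifth highest, and the low end was made up of antiviral effectors (Mx1, Isg15, Oasl1, Mx2, Oas1a and Ifi44) and Cxcl10.

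Within each role class, the most abundant member and the member of the widest range were chosen for naming. Those with no call of mean level are given here, as CPM in the pools of each group, and the others with their tests. Of the sensors, Ifih1 had 32.6 to 42.8 CPM in ED (median 39.5), 30.2 to 42.2 in MD (39.2) and 35.9 to 48.0 in EN (39.6), and Dhx58 had 3.17 to 5.79 (4.72), 2.23 to 7.76 (3.93) and 2.78 to 6.79 (5.16). Of the transcription factors, Irf1 had 32.9 to 45.99 CPM in ED (median 41.6), 30.0 to 47.8 in MD (38.1) and 27.95 to 51.5 in EN (43.7), and Irf7 had 7.41 to 13.7 (10.9), 4.69 to 19.1 (9.78) and 9.95 to 15.4 (12.8). For Dhx58 and Irf7 both the lowest and the highest of all pools were MD pools, with MD ZT20 the highest, and the groups overlapped for all 4 genes. Ifit3 had 7.31 to 14.4 CPM in ED (median 10.1), 5.68 to 18.4 in MD (10.96) and 8.80 to 22.6 in EN (12.5). Oasl2 and Oasl1, which encode synthetase-like proteins, had medians of 10.8 and 2.68 CPM in ED, 12.0 and 3.34 in MD and 11.9 and 3.57 in EN. Mx1 ranged from 1.56 CPM in MD ZT8 to 7.52 CPM in EN ZT8, with medians of 3.93 in ED, 3.498 in MD and 4.94 in EN.

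The ADP-ribosylation, GTPase and antigen-processing genes include the more abundant members. Parp14, which encodes a mono-ADP-ribosyltransferase, had 68.4 to 90.3 CPM in ED (median 80.2), 67.7 to 98.9 in MD (78.1) and 69.3 to 97.3 in EN (77.3). Its neighbours on chromosome 16, Parp9 and Dtx3l, whose proteins form a complex with ubiquitin ligase activity, had medians of 32.01 and 39.6 CPM in ED, 30.7 and 40.03 in MD and 32.4 and 42.9 in EN. Medians of these 3 neighbours differed little between groups beside the spread of their pools. Gbp2 had 31.9 to 45.3 CPM in ED (median 37.4), 28.6 to 51.1 in MD (37.7) and 31.4 to 43.4 in EN (37.6). Tap1 had 69.3 to 86.5 CPM in ED (median 76.6), 56.5 to 88.7 in MD (78.7) and 70.8 to 95.8 in EN (78.8). Ifi44, of the remaining class, had 0.874 to 2.59 CPM in ED (median 1.92), 0.964 to 2.45 in MD (1.24) and 1.34 to 3.29 in EN (2.11). None of the members in this and the preceding paragraph passed a test of mean level, and their groups overlapped.

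Members differed in how much they varied from pool to pool. The range of log2 CPM over 24 pools had a median of 1.186 over the members and 0.875 over all genes tested. It was widest for Isg15, a ubiquitin-like protein gene, at 2.84, for Oasl1 at 2.48 and for Mx1, a dynamin-like antiviral GTPase gene, at 2.19, followed by Irf7 at 1.997. It was narrowest for Irf9, the DNA-binding partner of STAT2, at 0.45, for Dtx3l at 0.51 and for Irgm1 at 0.53. Isg15, Oasl1 and Mx1 were counted at 16 to 130 reads per pool, so counting error adds to their range.

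**Figure D1:**
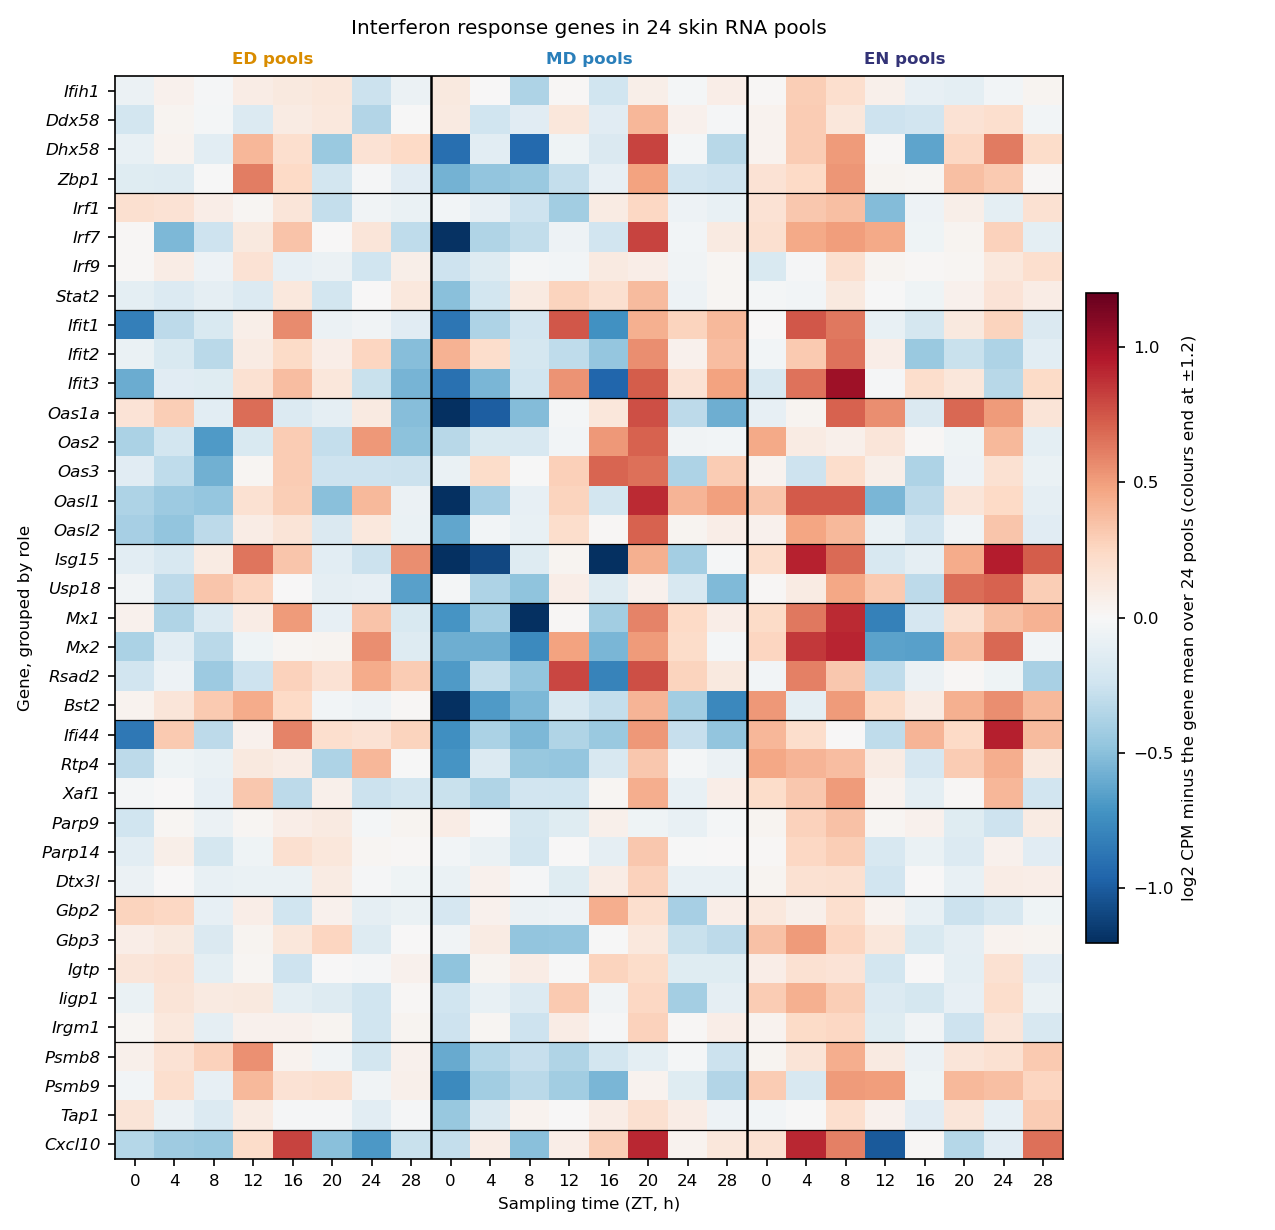
Log2 CPM of the 37 members (rows, grouped by role) in each of the 24 pools (columns, by feeding group and sampling time), as the difference from the gene's mean over the pools. The MD ZT20 and EN ZT8 columns are above the mean for 35 and 37 members, and the MD ZT0 column is below it for all but 4.

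Most members rose and fell together across pools. The Pearson correlation of a member with the mean of the other 36 had a median of 0.606 and was above 0.5 for 26 of 37 members. Among genes that are no members, 4.95% had a correlation above 0.5 with the members' mean. The correlation was highest for Zbp1, a sensor of Z-form nucleic acid, at 0.854, Dhx58, which encodes the RNA sensor LGP2, at 0.843, and Irf7, the transcription factor gene that amplifies type I interferon, at 0.832. It was lowest for Gbp2 at 0.136, Oas3 at 0.259, Parp9 at 0.28 and Ifit2 at 0.284. These values are a description over 24 pools, in which members share library, depth and scaling. Within a feeding group (8 pools) the median was 0.445 in ED, 0.764 in MD and 0.688 in EN.

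The pools at the ends of this shared course were some pools of MD and EN, not whole groups. The mean of the members (log2 CPM, centred on each gene's mean) was 0.42 in MD ZT20 and 0.42 in EN ZT8, followed by 0.31 in EN ZT4. MD ZT20 was the highest pool for 11 members and EN ZT8 for 8. The mean was lowest in MD ZT0, at -0.50, which was the lowest pool for 16 members. Next came MD ZT8, at -0.30, and MD ZT4, at -0.24. Ifit2 did not share that low, with 22.04 CPM in MD ZT0, the second highest of the MD pools. All pools of ED lay between -0.14 and 0.15. Only ZT0 and ZT4 were sampled again a day later, so MD ZT20, EN ZT8 and MD ZT8 have no repeat. MD ZT24 stood above MD ZT0 by a median of 0.34 over members, with 26 of 37 higher, while the median over all genes was 0.01. EN ZT28 stood below EN ZT4 by a median difference of -0.22, with 10 of 37 higher.

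Intron reads come mostly from unspliced transcripts. The mean intron level of the members was highest in the same 3 pools and lowest in the same pool as their exon mean. Members with enough intron reads (34 of 37; Isg15, Rtp4 and Cxcl10 were left out) had a mean intron level of 0.41 in MD ZT20, 0.39 in EN ZT8 and 0.33 in EN ZT4. It was -0.34 in MD ZT0. The order of the other pools differed: the next lowest were EN ZT12 at -0.29 and ED ZT20 at -0.25, whose exon means were -0.07 and -0.06, and MD ZT8 was at -0.15. Summed over members instead, intron CPM was highest in MD ZT20 (525.0), EN ZT4 (498.4) and EN ZT8 (495.3). This sum was lowest in EN ZT12, at 344.1 CPM. EN ZT16 (367.7), MD ZT4 (369.1) and MD ZT8 (369.6) also lay below MD ZT0 (370.8). The lowest pool in intron reads therefore depended on the summary used. Over the 24 pools the exon and intron means correlated at 0.869, as a description of libraries that share depth. Single members ranged from 0.095 for Irf9 to 0.864 for Mx1.

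**Figure D2:**
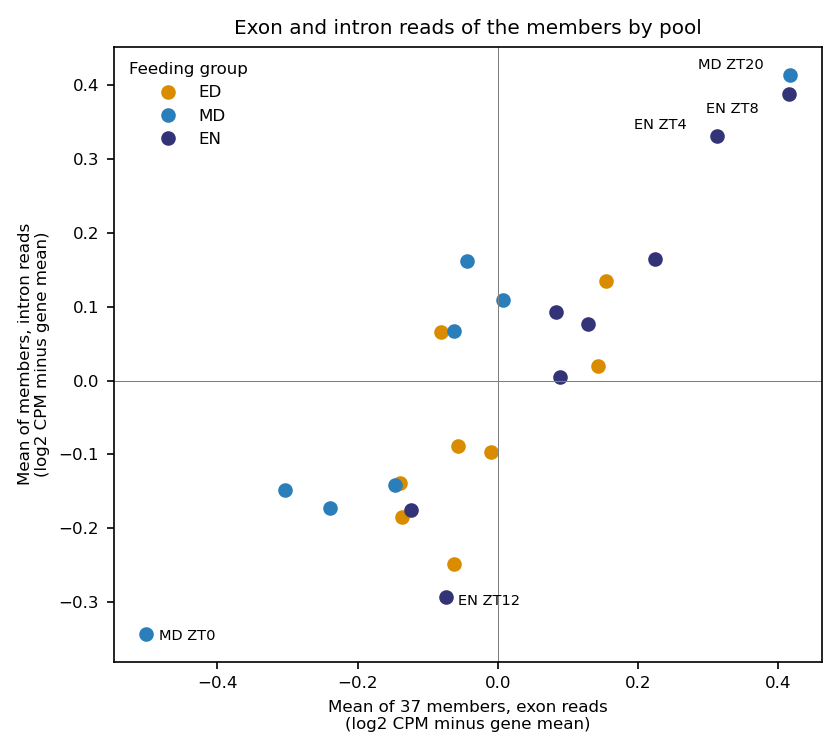
Mean of the members in exon reads (x) and in intron reads (y), with 1 point per pool coloured by feeding group. Both are log2 CPM minus the gene mean, but intron reads are scaled to the pool's own intron total. MD ZT20, EN ZT8 and EN ZT4 lie at the top right and MD ZT0 at the lower left on both axes.

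Among genes outside the interferon lists, the most alike to the members' mean over 24 pools were Rnf213 (r = 0.867), a large ubiquitin ligase gene, Uba7 (0.806), which encodes the enzyme that activates ISG15, and Slfn8 (0.802), a Schlafen gene. Actb, Lst1, Timp1, D14Ertd668e, Fes, Cd177 and Gm12216 followed, at 0.744 to 0.703. Cd177 and Lst1 are known from leukocytes. Neutrophil markers (3 measured of 4) summed to 22.2 CPM in MD ZT20 and 14.2 CPM in EN ZT8, the highest of the EN pools, against group medians of 8.57 in MD and 8.93 in EN. The highest neutrophil sum, 49.7 CPM, was in MD ZT4, where the members' mean was low, at -0.24. The plasmacytoid dendritic cell sum was 5.40 CPM in MD ZT20, the highest of all pools, and 4.56 CPM, above every ED and EN pool, in MD ZT0, where the members' mean was lowest. In bulk tissue, fewer cells of a type and less RNA per cell cannot be told apart, and the part of these markers in the shared course was not tested.

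Transcripts of the interferons themselves were near or below detection. Of 13 ligand genes listed, 11 had an exon row, and 7 of these (the 6 interferon alpha genes and Ifnb1) were at 0 in all 24 pools. A count of 0 among 433436788 exon reads allows up to 0.00692 CPM, for counting error only, and reads shared by near-identical interferon alpha genes are uncertain. The 4 others had 62 reads in all: 29 for Ifnz, 20 for Ifng, 12 for Ifnk, the keratinocyte interferon, and 1 for Ifne. None passed the filter on low counts, so differences between groups were not detectable at this depth.

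The members' mean level over the day was compared between feeding groups. In MD the immunoproteasome genes Psmb8 and Psmb9 and the tetherin gene Bst2 were lower than in ED, and Oas3 was higher. In EN, 9 members were higher than in MD and 0 lower. Between EN and ED 0 members passed. These tests used the fitted mean of a daily curve in each group, by edgeR's quasi-likelihood test with Benjamini-Hochberg adjustment over all genes tested and a threshold of 0.05.

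Between MD and ED, 4 of 37 members were called, 1 higher and 3 lower, where 23% of all genes tested were called (11.2% higher and 11.8% lower). The members' share was below that background. Psmb8, which encodes a catalytic subunit of the immunoproteasome (uc012apv.1; chromosome 17, 34197721 to 34201454), had 26.0 to 44.4 CPM in ED (median 31.5) and 19.9 to 29.8 CPM in MD (median 25.2). It was lower in MD by a log2 difference of -0.42 ± 0.0825 (standard error; adjusted p = 0.00103). The groups overlapped, and 6 of the 8 ED pools were above every MD pool.

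Psmb9, the other interferon-induced catalytic subunit in the set (uc008cbs.1; chromosome 17, 34181987 to 34187764), had 12.4 to 17.4 CPM in ED (median 14.4) and 7.75 to 13.7 CPM in MD (median 10.2). Its difference was -0.50 ± 0.133 (adjusted p = 0.00616). Tap1 starts within the span of Psmb9 on the other strand and did not pass, at 0.01 between MD and ED. Bst2, which encodes tetherin, a membrane protein that holds back budding virus (uc009mdr.1; chromosome 8, 71534255 to 71537456), had 9.43 to 13.5 CPM in ED (median 10.5). In MD it had 4.16 to 13.1 CPM (median 7.04), with MD ZT20 alone among the ED values, MD ZT12 being next at 8.60. The difference was -0.56 ± 0.151 (adjusted p = 0.00797), and without MD ZT16 it was not called (adjusted p = 0.0568).

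Oas3, which makes the oligoadenylates that activate RNase L (uc008zhz.1; chromosome 5, 120753098 to 120777661), went the other way. It had 5.26 to 9.79 CPM in ED (median 6.61) and 6.10 to 12.9 CPM in MD (median 9.42). The difference was 0.41 ± 0.138 (adjusted p = 0.0207), and the highest pools were MD ZT16 and MD ZT20. It was not called by limma on the RPKM values (adjusted p = 0.0884). Its antisense row held 46.7% as many reads as its exon row.

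Between EN and MD, 9 of 37 members were called, all higher in EN, where 30.2% of all genes were called in either direction, 15.9% higher and 14.4% lower; the members' share lay between the share higher and that in either direction. This comparison uses the same MD pools as the one with ED. Psmb9 had 11.6 to 19.03 CPM in EN (median 16.8), a difference of 0.64 ± 0.133 (adjusted p = 5.1e-04). Psmb8 had 28.9 to 41.1 CPM (median 33.7; difference 0.42 ± 0.0825, adjusted p = 6.05e-04). Bst2 had 9.09 to 14.5 CPM (median 13.1; difference 0.70 ± 0.151, adjusted p = 8.88e-04). Only MD ZT20 reached into the EN range of Bst2, and for Psmb8 only MD ZT24 did.

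The ubiquitin-like pair was higher in EN than in MD. Isg15, whose protein is attached to others during the response (uc012dri.1; chromosome 4, 156199424 to 156200818), had 0.701 to 3.98 CPM in MD (median 2.40) and 2.55 to 5.71 CPM in EN (median 4.39). The difference was 0.88 ± 0.309 (adjusted p = 0.0387), the largest of the members, and it rested on 16 to 105 reads per pool. Usp18, which removes ISG15 and dampens the type I receptor (uc009dog.2; chromosome 6, 121245906 to 121270917), had 8.29 to 12.7 CPM in MD (median 10.6) and 9.62 to 19.7 CPM in EN (median 14.8; difference 0.43 ± 0.155, adjusted p = 0.0140). Antisense rows held 43.1% as many reads as the exon row for Isg15 and 137% for Usp18.

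The other 4 were single members of their classes. Zbp1 had 3.94 to 8.30 CPM in MD (median 4.89) and 5.98 to 8.56 CPM in EN (median 6.84; difference 0.40 ± 0.120, adjusted p = 0.0168). Of the MD pools only MD ZT20 reached the EN range. Rtp4, a receptor transporter gene induced by interferon, had 4.47 to 9.28 CPM in MD (median 6.50) and 6.39 to 10.2 CPM in EN (median 9.34; difference 0.43 ± 0.145, adjusted p = 0.0239). Oas1a, an oligoadenylate synthetase gene, had 0.832 to 3.58 CPM in MD (median 1.51) and 1.80 to 3.41 CPM in EN (median 2.62; difference 0.54 ± 0.225, adjusted p = 0.0465). Gbp3, a guanylate-binding GTPase gene, had 8.27 to 12.6 CPM in MD (median 10.4) and 10.2 to 16.5 CPM in EN (median 12.3; difference 0.28 ± 0.0953, adjusted p = 0.0371). In none of the 37 members were all pools of one group above all pools of another, in any pair of groups, against 4.24% of all genes for EN and MD, 1.37% for MD and ED and 0.0191% for EN and ED.

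**Figure D3:**
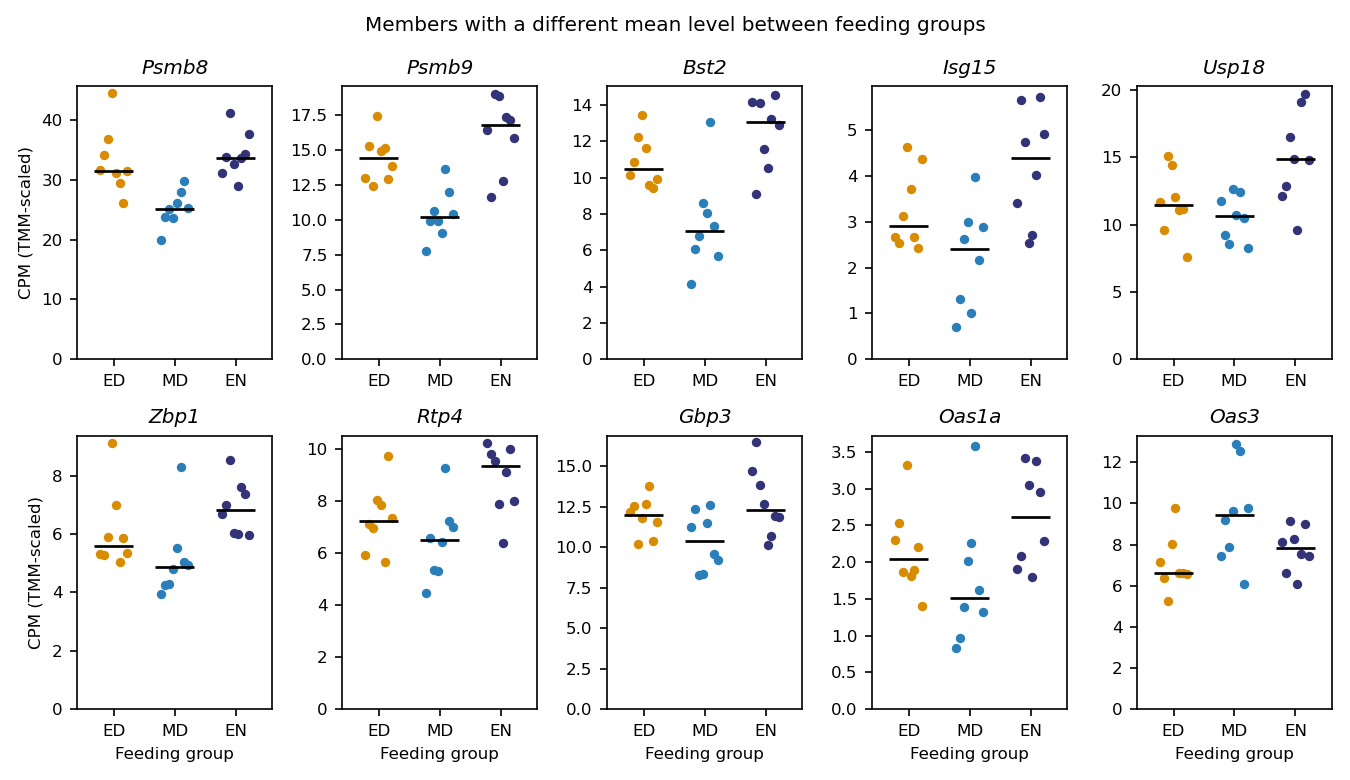
CPM of the 10 members with a different mean level, 1 point per pool and a line at the group median, by feeding group. MD is low for 9 of them and high for Oas3, and the groups overlap in each panel.

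Calls differed in how far they rested on single pools. Psmb8 and Psmb9 were called in both comparisons, and Bst2 between EN and MD, whichever of the 24 pools was left out and under the 7 other settings tried. Zbp1 was lost without any of 3 pools (MD ZT16, EN ZT8 or EN ZT20), Usp18 without any of 3, Rtp4 of 5, Isg15 of 8, Gbp3 of 11 and Oas1a of 15. Oas3 was lost without ED ZT8, ED ZT20 or MD ZT16, and without MD ZT0 and MD ZT20 together (adjusted p up to 0.0818 for a single pool). The number of members called between MD and ED was 2 without MD ZT16 and 7 without MD ZT20, and between EN and MD it was 3 without EN ZT20 and 4 without MD ZT16, EN ZT8 or EN ZT12. With limma on the RPKM values, Isg15, Usp18, Rtp4, Oas1a and Gbp3 were not called between EN and MD (adjusted p = 0.101, 0.0706, 0.135, 0.114 and 0.0586). Isg15, Usp18 and Oas1a were also lost there without the second day. Gbp3 was also lost without ED ZT24 and EN ZT0 together, and without MD ZT0 and MD ZT20 together.

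Between EN and ED, 0 of 37 members and 0% of all genes tested were called by edgeR (at an unadjusted p under 0.05, 961 genes or 6.11%, and of the members Usp18). DESeq2 called 0 members. The median estimate of the members was 0.09, with 31 of 37 above 0, while the median of all genes was -0.003 with 48.9% above 0. Most members rose and fell together across pools, so these signs are not separate observations, and a shift of the set was not tested. The median estimate of the members was 0.10 between EN and MD and -0.03 between MD and ED.

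**Figure D4:**
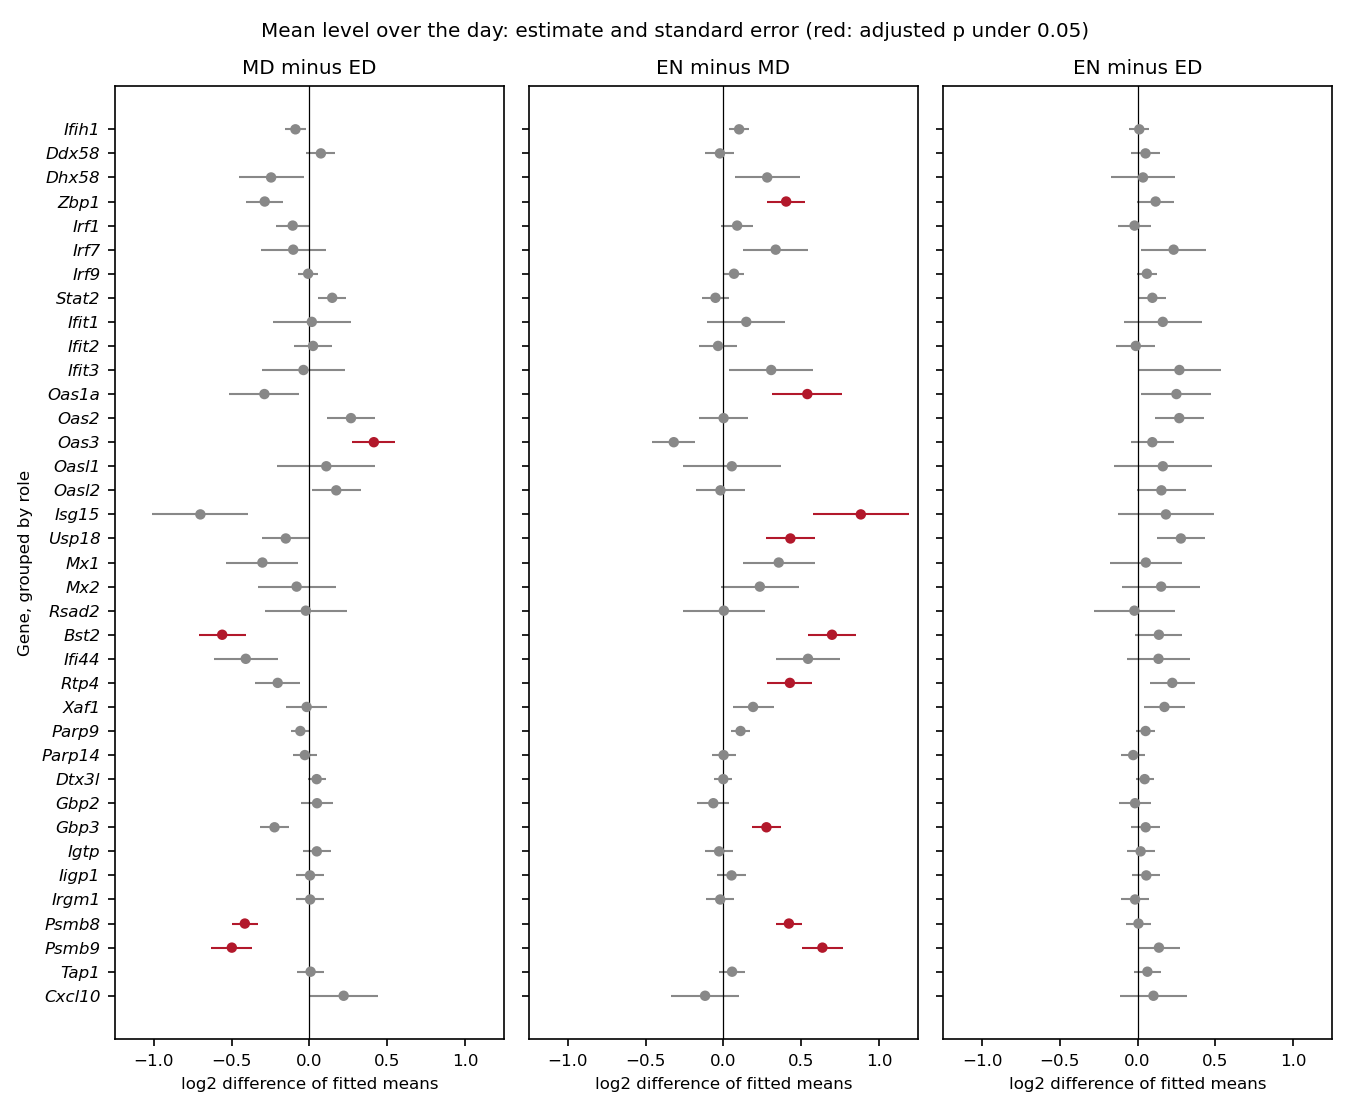
Difference in mean level over the day (log2, point and standard error) for each member in the 3 pairs of feeding groups, with adjusted p under 0.05 in red. MD minus ED shows 3 members below 0 and Oas3 above it in red, EN minus MD shows 9 above 0, and EN minus ED shows none.

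Other properties moved with the MD group as well. Members called lower in MD were short: exon length had a median of 1352 bases for those lower in MD than in ED and 2910 for those not called, and 1771 for those higher in EN than in MD against 3112.5 for those not called. Oas3, higher in MD, has 4720 bases. Over all genes with a known length (13865), the median difference between EN and MD was 0.16 for the shortest genes (up to 2448 bases), -0.01 for those of middle length (up to 4285 bases) and -0.11 for the longest, in classes of equal size. The members' medians in the same classes were 0.41, 0.10 and 0.02 (16, 16 and 5 members). The part of transcript length in these calls was not tested.

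Median marker sums of several cell types also differed between MD and EN, in both directions. T cell markers (5 measured of 7) summed to 12.7 to 17.4 CPM in MD and 18.4 to 22.04 CPM in EN, with no overlap. Of all single genes, 4.24% did not overlap between EN and MD, in either direction. Cd3g, the most abundant of these markers, was at 3.77 to 6.97 CPM in MD and 6.47 to 10.4 CPM in EN. Cd8a was at 0.671 to 1.80 CPM in MD and 0.672 to 1.14 CPM in EN. Langerhans and dendritic cell markers (5 of 5) summed to 731.3 to 1106 CPM in MD and 1097 to 1620 CPM in EN. Macrophage markers (5 of 6) differed little, at 259.4 to 491 CPM in MD (median 407.4) and 396.3 to 539 CPM in EN (427.6). Of these, Cd163 was not lower in MD, at 44.5 to 119.8 CPM against 46.98 to 113.7 CPM in EN. The adipocyte sum (4 of 4) was 464.4 to 810.1 CPM in MD and 832.9 to 1688 CPM in EN, also with no overlap. The fibroblast sum (4 of 4) was 26520 to 41920 CPM in MD and 39760 to 76160 CPM in EN. The mast cell sum (4 of 4) was 58.1 to 110.9 and 98.4 to 163.9 CPM. Skeletal muscle markers (5 of 5) went the other way, with a median sum of 16520 CPM in MD, 10320 CPM in ED and 12850 CPM in EN. Their sums overlapped widely, at 9356 to 19120 CPM in MD, 6288 to 18790 in ED and 7742 to 18970 in EN. Of these 5 markers, 4 were called higher in MD than in ED, as were 11.2% of all genes tested. No measured marker was at 0 over all pools. Their part in the members' differences was not tested.

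A code in the sample descriptions, whose meaning the labels do not give, ran from 1 to 3 in MD, 3 to 6 in ED and 6 to 8 in EN. Code 1 held MD ZT0, MD ZT4 and MD ZT8, the 3 pools with the lowest mean of the members (-0.50 to -0.24). MD ZT24 has code 3, so day and code cannot be told apart in its difference from MD ZT0. MD and EN share no code, so code and feeding group cannot be told apart there. MD and ED share only code 3, with 1 ED pool and 2 MD pools, too few for a test. In it Psmb8 was at 31.6 CPM in ED ZT0 and at 29.8 and 25.3 CPM in MD ZT24 and MD ZT28. Psmb9 was at 13.0 against 12.0 and 10.4 CPM, and Bst2 at 10.1 against 7.33 and 5.69 CPM. Oas3 was at 7.18 against 6.10 and 9.77 CPM, on either side of the ED pool.

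The course over the day was then tested. In none of the groups was a member rhythmic by edgeR (0 of 37 in ED, MD and EN, where 0.719%, 0.942% and 1.06% of all genes were; DESeq2 0 in each). At an unadjusted p under 0.05 there were 3, 7 and 4 members, against 14.9%, 15.7% and 10.8% of all genes. A course shared by the groups against clock time passed for 0 members (0.668% of all genes), and at an unadjusted p under 0.05 for Oas2, against 14.7% of all genes. Against hours since food was opened, 1 member passed, Ifit2, where 1.29% of all genes did. Ifit2 was also the member whose rhythm differed between groups in clock time (adjusted p = 0.0437; 1.02% of all genes passed), but 18 of the 24 pools, left out in turn, each ended that call. It was also lost with sampling time as a replicate block (adjusted p = 0.0514) and by limma on the RPKM values (adjusted p = 0.0714). At an unadjusted p under 0.05 the rhythm of 6 members differed, against 14.4% of all genes.

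Ifit2 was lower at 3 to 8 h after food opened than at 19 to 24 h, in each feeding group. It encodes an RNA-binding protein with tetratricopeptide repeats that acts against viral translation (uc008hgn.2; chromosome 19, 34550694 to 34576419). In ED it was at 15.6, 14.5, 13.2, 17.7, 19.3, 17.4, 19.7 and 11.5 CPM from ZT0 to ZT28. In MD it was at 22.04, 19.2, 14.2, 13.3, 12.0, 24.3, 17.1 and 21.4 CPM, and in EN at 16.2, 20.5, 26.0, 17.5, 12.1, 13.7, 12.7 and 15.1 CPM. The low pools lay at ZT4, ZT8 and ZT28 in ED, from ZT8 to ZT16 in MD and from ZT16 to ZT24 in EN. Pools at 11 or 12 h after food opened were not alike, at 17.7 CPM in ED ZT12, 12.0 in MD ZT16, 16.2 in EN ZT0 and 12.7 in EN ZT24. These are the values that the food-time test used, so they are no separate support for it.

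Fitted alone, the curve of Ifit2 peaked at ZT 17.9 for ED, at ZT 0.174 for MD and at ZT 7.63 for EN. Counted from the opening of food, these peaks were at 17.9, 19.2 and 19.6 h. The amplitudes (log2, mean to peak) were 0.30 ± 0.125, 0.39 ± 0.120 and 0.43 ± 0.128, and none of the 3 passed alone (adjusted p = 0.362, 0.158 and 0.158). The shared curve had an amplitude of 0.37 ± 0.0669 and a peak at 19.02 h after food opened (adjusted p = 0.00765). This call held without each of the 24 pools (highest adjusted p = 0.0237) and under the 6 other settings tried (highest 0.0216).

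**Figure D5:**
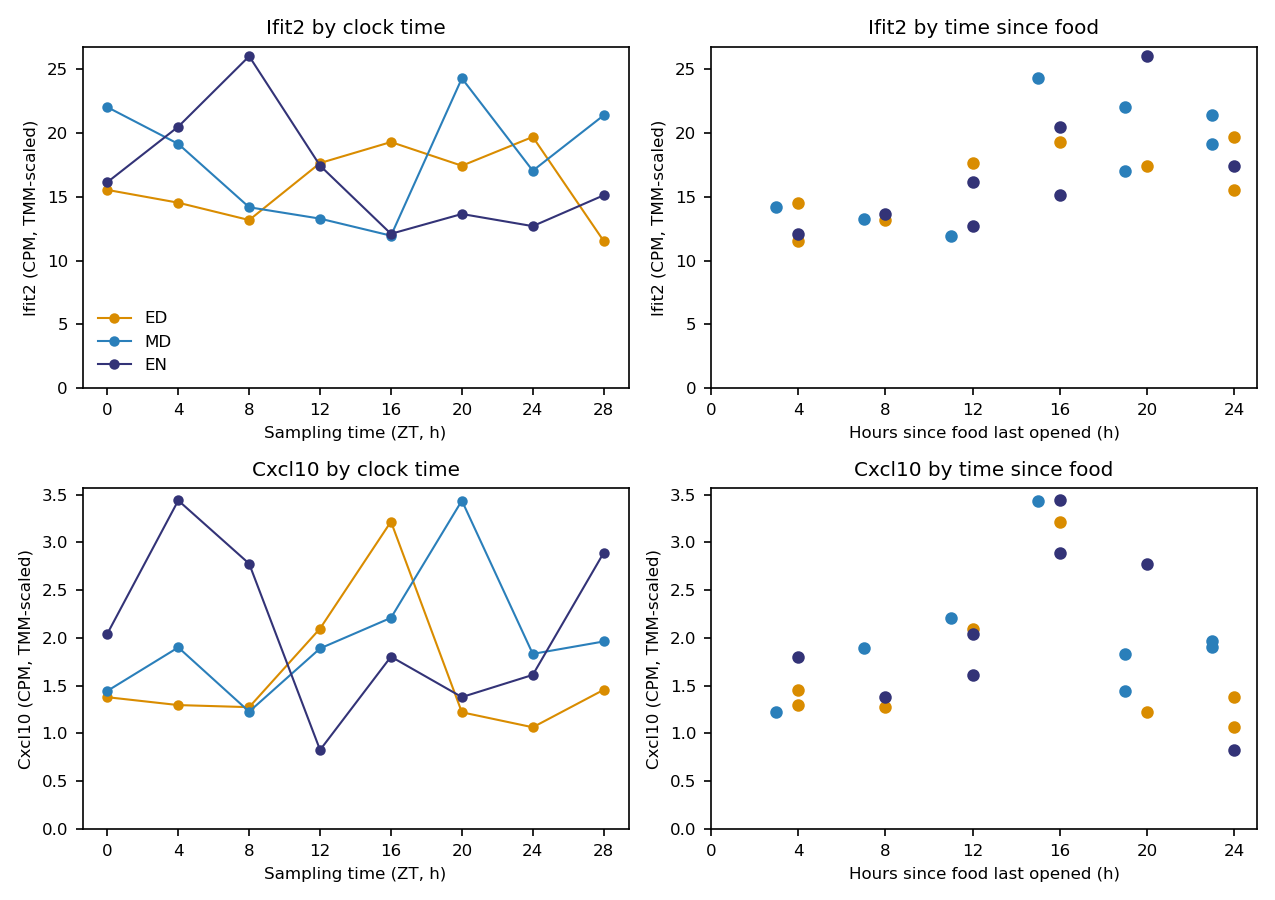
Ifit2 (top) and Cxcl10 (bottom) in CPM against sampling time (left, lines join the pools of a group) and against hours since food last opened (right), 1 point per pool. By time since food, all Ifit2 values at 3 to 8 h are between 11.5 and 14.5 CPM and those at 19 to 24 h are between 15.6 and 26.0 CPM, while the 4 highest Cxcl10 values are at 15 and 16 h.

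The pools taken 3 to 8 h after food opened (7 pools) were set against those at 19 to 24 h (9 pools), with feeding group and time of day in the model. They are called after food here, but food was open for 4 h. MD ZT8, at 3 h, was taken with food still open, and ED ZT4, ED ZT28 and EN ZT16, at 4 h, as it closed. Of the members, 1 was called, Ifit2, lower after food, where 4.85% of all genes were called in either direction and 2.46% lower. Ifit2 was at 11.5 to 14.5 CPM after food (median 13.3) and at 15.6 to 26.0 CPM before the next meal (median 19.2). These pools did not overlap, which held for 0.134% of all genes in this direction and for no other member. The pools between, at 11 to 16 h, spread over both, from 12.0 to 24.3 CPM. This contrast reuses the pools of the food-time test and is no separate support for it.

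The mean of Ifit2 after and before food was 13.1 and 17.6 CPM in ED, 13.7 and 19.9 CPM in MD and 12.9 and 21.7 CPM in EN. The fitted difference was -0.63 ± 0.149 (adjusted p = 0.00891). It was not called without EN ZT8, the highest pool (adjusted p = 0.0878), or without the second day (adjusted p = 0.0571). The time-of-day term is the same for the 3 groups, so a course whose phase differs between groups can enter this contrast. The macrophage marker sum was 259.4 to 493.9 CPM after food and 323.8 to 539 CPM before, and the neutrophil sum 5.06 to 11.1 and 7.54 to 49.7 CPM. The keratinocyte sum was higher after food, at 6362 to 7561 CPM (median 7169), than before, at 5098 to 6838 CPM (median 5839). Their part in the difference was not tested.

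Ifit1 and Ifit3, neighbours of Ifit2 on chromosome 19 with related proteins, did not pass against food time. Their shared amplitudes were 0.17 ± 0.135 and 0.18 ± 0.152 (adjusted p = 0.641 and 0.638). Their highest pools were MD ZT12 and EN ZT4 for Ifit1, both at 19.2 CPM, and EN ZT8 for Ifit3, at 22.6 CPM. Both correlated with the mean of the other members, at 0.734 and 0.702, more closely than Ifit2 at 0.284. Ifit1 and Ifit3 had 2 ISRE matches each in the 250 bases upstream, and Ifit2 had none before either of its starts. Only those 250 bases and the fixed letters were searched, so this does not show that Ifit2 lacks the element.

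Cxcl10, which encodes a chemokine that draws T cells (uc008ycz.2; chromosome 5, 92346638 to 92348889), came next after Ifit2 against food time without passing. Its amplitude was 0.48 ± 0.115 with a peak at 14.9 h after food opened (adjusted p = 0.0540), and DESeq2 called it. It was highest at 3.22 CPM in ED ZT16, 3.44 in MD ZT20 and 3.44 in EN ZT4, which are 15 or 16 h after food opened. After food it was at 1.23 to 1.89 CPM, between at 1.61 to 3.44 CPM, and before the next meal back at 0.828 to 2.78 CPM. It was counted at 13 to 70 reads per pool, and its antisense row held 62.8% as many reads.

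In all, 11 members had an unadjusted p under 0.05 against food time, a level that 15.6% of all genes reached. They were the sensors Ifih1 (which encodes MDA5), Ddx58 (RIG-I), Dhx58 and Zbp1, and Ifit2, Mx1, Bst2, Usp18, Gbp3, Parp14 and Cxcl10. Their fitted peaks lay between 11.1 h (Bst2) and 19.02 h (Ifit2) after food opened, and their amplitudes between 0.12 and 0.48. The median amplitude was 0.145 over the members and 0.092 over all genes. Of the transcription factors, the OAS family and the antigen-processing genes none was among them, with smallest adjusted p of 0.358, 0.372 and 0.484.

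Other genes of the pathway were taken from lists of 82 genes, of which 64 passed the filter. Between MD and ED 14 were called, 3 higher and 11 lower, a share close to the 23% of all genes tested. Ifi27l2a, an interferon-induced gene of a small membrane protein, had 57.8 to 162.2 CPM in ED, 13.3 to 48.6 CPM in MD and 69.2 to 143.8 CPM in EN. Its MD pools lay below all pools of both other groups, with differences of -1.79 ± 0.276 to ED (adjusted p = 6.0e-05) and 2.05 ± 0.276 from MD to EN (adjusted p = 1.5e-05). Of all genes, 1.37% did not overlap between MD and ED and 4.24% between EN and MD, in either direction. Psme2 and Psmb10, described below, also did not overlap between MD and EN.

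Antigen presentation held 5 of the 14. Psme2, a proteasome activator gene, was at -0.49, Psmb10, the catalytic subunit gene that completes the immunoproteasome with Psmb8 and Psmb9, at -0.48, and H2-D1 and H2-K1, MHC class I genes with near-identical copies, at -0.33 and -0.20. Nlrc5, the class I transactivator gene, was higher in MD, at 0.21. The other 8 called were Tbk1 and Tgtp2, higher at 0.16 and 0.64, and Socs1 (-0.79), Lgals3bp (-0.46), Irf8 (-0.37), Ifi47 (-0.37), Ifnar2 (-0.31) and Ifitm3 (-0.27), lower.

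Between EN and MD 20 were called, 15 higher in EN and 5 lower, a share close to the 30.2% of all genes tested. Those higher included Socs1 (0.72), a brake on the receptors, Psme2 (0.62), Psmb10 (0.57), Lgals3bp (0.55), Ifi47 (0.47), H2-D1 (0.44), Ifitm3 (0.36), Irf8 (0.36), Ifnar2, a subunit of the type I receptor (0.35), Psme1 (0.32), Trim30a (0.27), Il10rb (0.27), Ifitm2 (0.25) and H2-K1 (0.21). Those lower were Cxcl9 (-0.62), Il28ra (-0.36), Nlrc5 (-0.29), Mavs (-0.22) and Pias1 (-0.19). Of the receptor kinase genes Jak1, Jak2 and Tyk2, 0 of 3 passed in any pair of groups. Between EN and ED 0 of 64 passed.

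After food, 4 of the 64 were called against the pools before food, all lower: Tlr7, the endosomal RNA receptor gene (-0.70), Ifngr1, a subunit of the interferon gamma receptor (-0.45), Samhd1, a nucleotide hydrolase gene (-0.26), and Il10rb, a receptor subunit for lambda interferons (-0.25). Of all genes tested 4.85% were called in this contrast, 2.46% lower. Tlr7 was at 2.18 to 7.13 CPM after food and 3.92 to 7.77 CPM before, and Ifngr1 at 86.3 to 157.2 and 120.4 to 224.7 CPM, so both overlapped. No gene of these lists passed against food time or clock time.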

How the data were processed

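The values are whole-number read counts per gene model, with separate exon, intron and antisense rows, deposited by the authors without normalization, per the file headers. The deposited RPKM values were made by the authors with cqn, per the file name; they are linear. The submitters' processing notes name TopHat2, SAMtools, HOMER and the build mm10 and give no versions. How reads matching several places were counted is not given in the sources, so genes with near-identical copies are uncertain. Every value column matched 1 library, and 0 columns belonged to no sample.

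Members were exon rows matched by symbol (of rows sharing a symbol, that with the highest total). The members, lists and tests were chosen with earlier results of these data known. Named are members past a test's threshold, the highest and most variable of their class, called pathway genes and the 10 most alike genes; the members of a class not named by these values are counted. Genes passed filterByExpr by feeding group (minimum count 10, minimum total 15). edgeR 4.0.16 (TMM scaling, quasi-likelihood test) fitted a mean, a cosine and a sine of 24 h per group over 24 libraries (15 residual degrees of freedom); the shared-course models had 19 and the food-class model 14. All adjusted p-values are edgeR's with Benjamini-Hochberg adjustment over 15719 genes unless limma 3.58.1 (log2 of RPKM plus 0.1) or DESeq2 1.42.0 is named. Least squares on log2 CPM (prior count 2) gave estimates and standard errors. Exon CPM are scaled by TMM, and intron values by the library's own intron total without TMM. Coordinates and exon lengths are from the GENCODE annotation of GRCm38, and promoters from RefSeq. Alternatives were DESeq2, no filter, limma on RPKM, leaving out pools or the second day, and sampling time as a block. The tests were checked on simulated data. Standard errors reflect the scatter of pools around the fitted model, and SD the spread over pools. The limit given for a count of 0 covers counting error only.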

Additional observations from a re-analysis of the deposited data

Results flagged for a closer look

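A single pool stood far above the other 7 of its group in 4 of 114 groups looked at (37 members and the members' mean, in 3 feeding groups); chance gives about 1 in 20. Zbp1 was at 8.3 CPM in MD ZT20, with the next MD pool at 5.53. Ifi44 was at 2.45 CPM in MD ZT20, with the next at 1.36. Parp14, which encodes a mono-ADP-ribosyltransferase, was at 98.9 CPM in MD ZT20, with the next at 79.4. These 3 share MD ZT20, the pool with the highest mean of the members. Mx2 was at 3.8 CPM in ED ZT24, one of the pools with growing-hair transcripts, with the next ED pool at 2.61.

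The daily course of Ifit2 in clock time differed between the feeding groups (edgeR's test of equal cosine and sine terms, adjusted p = 0.0437). The call was lost with sampling time as a replicate block (adjusted p = 0.0514), by limma on the RPKM values (adjusted p = 0.0714) and without any 1 of 18 of the 24 pools (adjusted p up to 0.161).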

How the results depend on the processing

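Of the counts and medians over members under each alternative, 273 stayed close to the reported value and 36 moved, and no value, single members included, reversed. Counts that were 0 and stayed at 0 are among the 273, so this tally does not measure how firm single calls are. With sampling time as a replicate block, 4 members were called between MD and ED, 10 between EN and MD, 0 between EN and ED and 0 for a different rhythm. By DESeq2, 2 members (Ifit2 and Cxcl10) differed in rhythm between groups and 2 (again Ifit2 and Cxcl10) followed food time. By limma on RPKM, 4 members were called between EN and MD and 0 for a different rhythm. Without the second day 0 were called after food. The causes were not tested. Leaving out 1 pool at a time gave 2 to 7 called members between MD and ED (2 without MD ZT16, 7 without MD ZT20) and 3 to 11 between EN and MD (3 without EN ZT20, 4 without MD ZT16, EN ZT8 or EN ZT12, 11 without MD ZT20). It gave 0 to 1 for a different rhythm, 1 to 2 against food time (2 without ED ZT20, MD ZT0, MD ZT16, MD ZT24 or EN ZT24) and 0 to 1 after food (0 without EN ZT8). The 3 rhythm tests, clock time and EN against ED gave 0 throughout. Without MD ZT0 and MD ZT20, chosen after the data were seen, 4 and 10 were called between MD and ED and between EN and MD. The median correlation of members was 0.594 to 0.607, and the median range of log2 values, without a prior count, 1.21 for CPM and 1.04 for RPKM. One pool per time and group and low counts (Isg15, Cxcl10, Oas1a) limit what can be seen.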
